A study of Mus musculus with 12 samples.

Results

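The interferon-stimulated genes described here were 37 mouse genes chosen by name, of which 35 had a row among the 22935 genes of the deposited tables and 33 were abundant enough to be tested. Ifih1 and Zbp1 were not analysed here. Mx1 and Gbp5 stayed below the count filter, so their levels are given without a test. Genes of this kind answer to interferons, the secreted proteins that warn cells of infection or of misplaced nucleic acid. Type I interferon binds the receptor chains Ifnar1 and Ifnar2, whose kinases Jak1 and Tyk2 phosphorylate Stat2, which acts with Irf9 on a promoter element called the ISRE. Interferon gamma acts through another element, the GAS. In microglia, the resident macrophages of the brain, a group of these genes marks an interferon-responsive state that appears in infection, ageing and injury.

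The RNA came from BV2, an immortalised line of mouse microglia, in a series on the C3/C3aR pathway in microglia after subarachnoid haemorrhage. The first of 3 groups received 10 µM oxyhaemoglobin (oxy-Hb) and C3a, the fragment of complement C3 that binds the receptor C3aR, labelled 20 ug/ul, a concentration so high that the unit is doubtful. The second received 10 µM oxy-Hb and 50 µM C3aRA, named in the labels by these letters alone, and the third received 10 µM oxy-Hb alone. Each group had 3 libraries, called C3a, C3aRA and oxy-Hb below, all of them from cells given oxy-Hb. The 3 samples labelled PBS were not analysed here. Neither the time of exposure nor the origin of the replicates in separate cultures is stated, so the spread behind each p-value may be technical. The cells are a cultured line and not microglia taken from an animal, and in bulk RNA fewer cells of a type and less RNA per cell cannot be told apart.

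Library totals ran from 12934794 to 20479002 counts, and a floor of 3 counts equalled 0.146 to 0.232 CPM (counts scaled to library size), which covers counting error only. C3a replicate 2 stood apart from the other 8 libraries. Its first principal component score was -76.3, against a size of at most 23.8 elsewhere. Genes of ribosomal proteins made up 48451 CPM in it and 31083 to 35712 CPM in the others. The macrophage markers were present, with Ptprc at 404.1 to 504.4 CPM and Csf1r at 60.7 to 83.4 CPM, while the microglial markers P2ry12, Tmem119 and Aif1 reached at most 3.76, 2.33 and 2.90 CPM. All 11 of 11 listed microglial or macrophage genes were tested, and their sum was 1134 to 1336 CPM with C3a, 1087 to 1106 CPM with C3aRA and 1015 to 1044 CPM with oxy-Hb alone, so the groups did not overlap. The part of that difference in the results below was not tested. Of 5 neuronal, 4 astrocyte and 4 red cell markers 1 each had a row, and these reached at most 0.833, 0.709 and 0.289 CPM in any library. The 1 of 5 endothelial or fibroblast markers with a row stood at 1.005 to 1.66 CPM with C3a, 0.629 to 1.56 CPM with C3aRA and 0.106 to 0.691 CPM with oxy-Hb alone, so the C3a and oxy-Hb libraries did not overlap, and its part in the results was not tested. Of 6 lymphoid and plasmacytoid dendritic cell markers 2 had a row. Siglech was at 0 in all 9 libraries, and Bst2, itself a member, made up that list's sum of 133 to 199.7 CPM. Oligodendrocyte genes summed to 30.6 to 35.9 CPM.

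Promoters of the members were searched for both elements because they are the sites through which interferon signalling reaches these genes. RefSeq (GRCm38.p6) gave a sequence of 300 bases, 250 before and 50 after a transcript start, for 29 of the 35 genes. The ISRE was searched as GAAA, NN, GAAA, with TTTC, NN, TTTC on the other strand, and the GAS as TTC, NNN, GAA, which reads the same on both strands. The ISRE letters occurred in 17 of 29 member genes (58.6%), against 3.99% of 27025 genes with such a sequence. The GAS letters occurred in 9 of 29 member genes (31.0%), against 9.55% of all genes, and in Bst2 1 GAS match overlapped an ISRE match. The sequences below are those of the 3 members that passed a comparison, of Ifit1 and Oas1a, which were among the lowest p, of Isg15, the gene with the most ISRE matches, and of Oas1g, which shares transcript sequence with Oas1a and passed in no comparison. Capitals mark ISRE matches, and offsets count from the RefSeq start to the first base of a match.

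Stat2, chr10:128270248-128270547, plus strand: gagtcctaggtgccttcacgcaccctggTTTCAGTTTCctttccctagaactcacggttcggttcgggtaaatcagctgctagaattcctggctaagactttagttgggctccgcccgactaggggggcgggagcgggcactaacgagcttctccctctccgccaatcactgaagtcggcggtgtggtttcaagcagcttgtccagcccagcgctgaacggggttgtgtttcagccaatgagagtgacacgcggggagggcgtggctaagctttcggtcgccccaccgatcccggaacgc
Irgm1, chr11:48871371-48871670, minus strand: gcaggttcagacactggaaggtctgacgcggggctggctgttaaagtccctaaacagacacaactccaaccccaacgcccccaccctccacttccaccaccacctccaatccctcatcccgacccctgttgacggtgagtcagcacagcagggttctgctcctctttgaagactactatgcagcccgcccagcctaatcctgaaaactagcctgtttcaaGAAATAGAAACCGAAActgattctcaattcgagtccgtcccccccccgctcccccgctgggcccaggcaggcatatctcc
Cmpk2, chr12:26468965-26469264, plus strand: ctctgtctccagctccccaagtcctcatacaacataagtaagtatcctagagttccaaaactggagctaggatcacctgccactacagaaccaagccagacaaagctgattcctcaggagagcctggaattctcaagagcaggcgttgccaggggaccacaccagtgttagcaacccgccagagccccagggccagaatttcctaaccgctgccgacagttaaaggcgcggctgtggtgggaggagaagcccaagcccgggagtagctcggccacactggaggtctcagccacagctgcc
Ifit1, chr19:34640639-34640938, plus strand: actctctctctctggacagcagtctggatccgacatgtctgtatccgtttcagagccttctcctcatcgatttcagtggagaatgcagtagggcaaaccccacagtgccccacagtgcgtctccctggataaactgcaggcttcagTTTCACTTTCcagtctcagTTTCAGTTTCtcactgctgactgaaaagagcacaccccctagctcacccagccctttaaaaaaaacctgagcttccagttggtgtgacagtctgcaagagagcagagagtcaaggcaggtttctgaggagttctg
Isg15, chr4:156200769-156201068, minus strand: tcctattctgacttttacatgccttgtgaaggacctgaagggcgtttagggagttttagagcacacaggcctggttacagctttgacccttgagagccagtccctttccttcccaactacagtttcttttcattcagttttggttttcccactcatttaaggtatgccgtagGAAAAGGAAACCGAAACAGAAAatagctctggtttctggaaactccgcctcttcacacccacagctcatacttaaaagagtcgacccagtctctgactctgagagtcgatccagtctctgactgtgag
Oas1a, chr5:120907476-120907775, minus strand: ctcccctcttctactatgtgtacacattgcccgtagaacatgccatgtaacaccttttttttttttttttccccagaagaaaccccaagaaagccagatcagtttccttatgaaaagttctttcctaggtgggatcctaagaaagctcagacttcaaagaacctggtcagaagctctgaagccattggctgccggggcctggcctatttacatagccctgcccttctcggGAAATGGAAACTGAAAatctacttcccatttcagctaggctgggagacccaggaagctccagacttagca
Oas1g, chr5:120887564-120887863, minus strand: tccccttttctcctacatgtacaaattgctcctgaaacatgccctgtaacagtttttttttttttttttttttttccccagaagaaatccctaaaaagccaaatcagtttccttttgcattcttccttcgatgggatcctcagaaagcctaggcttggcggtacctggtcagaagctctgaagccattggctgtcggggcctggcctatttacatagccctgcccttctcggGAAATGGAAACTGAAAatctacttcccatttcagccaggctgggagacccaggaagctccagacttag

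Isg15 held 3 overlapping matches, at -78, -72 and -66. Ifit1 held a pair of separate matches, at -104 and -85, and Irgm1 an overlapping pair close to the start, at -30 and -24. Oas1a (-20 and -14) and Oas1g (-18 and -12) carried the same run of capitals. Stat2 had a single match, at -222, the farthest from the start among these sequences, and the Cmpk2 window held none, which says only that these letters are not in this window. A match is a description of the letters and no evidence of binding.

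Levels of the members spanned a wide range in all 3 groups. On the scale of CPM per kilobase of the longest annotated transcript, averaged over the 9 libraries, Bst2, the membrane tether that holds budding virus on the cell, stood highest at 195. It was followed by Ifi204, a DNA-binding sensor, at 40.1, Oasl1, which in mice limits translation of Irf7, at 30.1, Rsad2, the antiviral enzyme viperin, at 23.9, and Oas1a, a synthetase of the messenger that activates RNase L, at 22.8. At the other end stood Gbp5 at 0.0397, Mx1 at 0.0681, Ifi44 at 0.117, Ifit3b at 0.269 and Gbp2 at 0.466. Mx1, an influenza-blocking GTPase, had 6, 0 and 4 counts with C3a, 0, 0 and 7 with C3aRA, and 2, 18 and 0 with oxy-Hb alone. Gbp5 had 0, 1 and 5 counts with C3a, 2, 0 and 0 with C3aRA, and 0, 2 and 12 with oxy-Hb alone. Both genes had libraries at 0 counts in every group, and no difference was read from them.

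**Figure D1:**
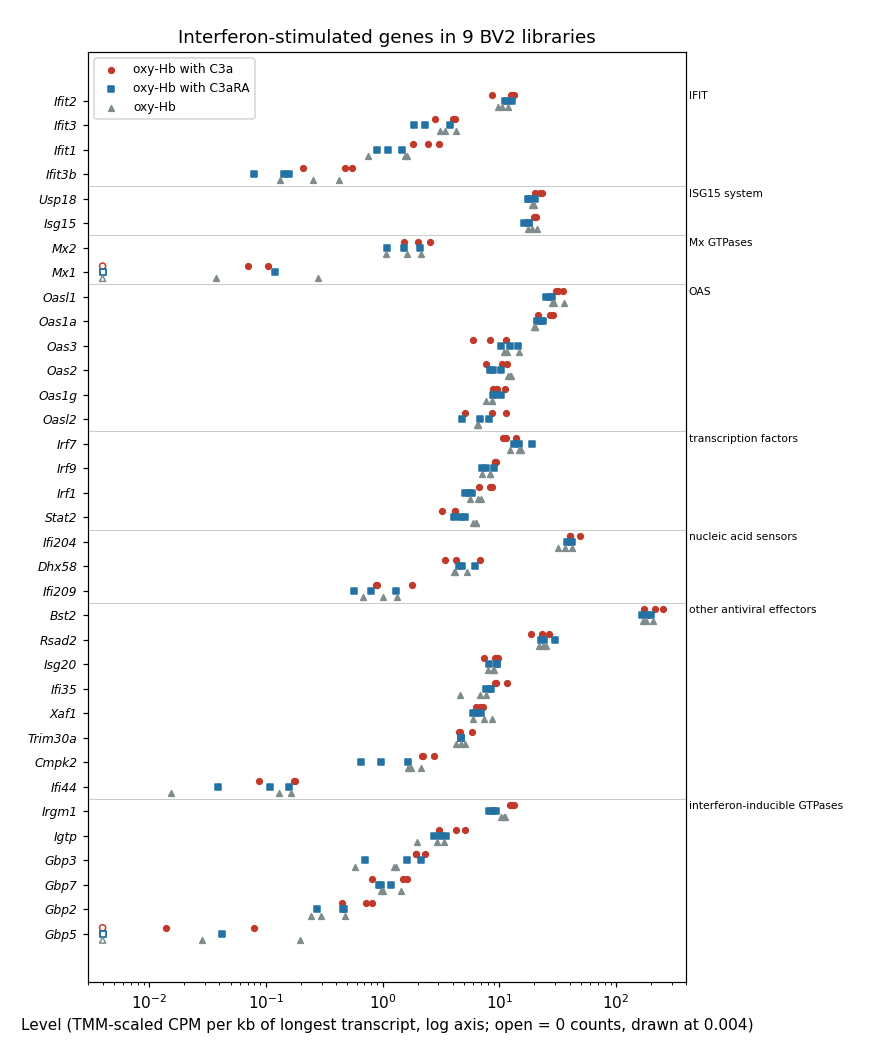
Level of the 35 members in each of 9 BV2 libraries, as TMM-scaled CPM per kb of the longest transcript on a log axis, with genes grouped by role. Circles are C3a, squares C3aRA and triangles oxy-Hb alone, and open symbols are 0 counts; Bst2 lies highest at a mean of 195 and Gbp5 lowest at 0.0397.

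Some of these genes cannot be fully told apart by their reads. Of the 50-base stretches in their transcripts, 57.6% of those of Oas1a and 54.7% of those of Oas1g also occur in another gene, and the shares were 51.2% for Ifit3, 45.0% for Ifit3b, 35.1% for Ifi209 and 30.2% for Ifi204. Igtp overlaps Irgm2 and Irf9 overlaps Rnf31 on the same strand, and Dhx58, Ifi35, Irf1, Irf7, Oas2, Oasl1, Trim30a and Usp18 each overlap a gene on the opposite strand. The strand setting of the counting is not given in the sources used here, so reads from such pairs cannot be separated, and values of all these genes are uncertain to that extent.

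The first comparison asked how the members stood in cells given C3a on top of oxy-Hb. Stat2 was the 1 member that passed, and it fell. None rose. Across all genes 558 of 14146 (3.94%) were called by edgeR's quasi-likelihood test at an adjusted p below 0.05, with 430 lower (3.04%) and 128 higher (0.905%), and 1 lower call among 33 members is close to that background share. Most of the other members leaned the other way without passing. The log2 fold change was positive in 27 of 33 members, against 50.2% of all genes, and its median was 0.23 over the members and 0.00 over all genes. The members' median was 0.14 (-0.01 over all genes) without C3a replicate 1 and 0.13 (-0.09) with total-count scaling. It was 0.12 (0.02) at a mean of at least 5 CPM and 0.14 (0.03) with a length and GC correction. At an unadjusted p below 0.05, 6 members stood higher and 2 lower, where 11.5% and 12.6% of all genes did. The count of positive members was 22 of 33 when libraries were scaled by total counts, a setting under which 40% of all genes were positive and 34 genes were called higher and 664 lower. All C3a libraries lay above all oxy-Hb libraries in 9 members (13.2% of all genes) and below them in 2 (14.6% of all genes). Relative to the mean of the oxy-Hb libraries, the median member stood at 0.22, 0.15 and 0.18 (log2) in the C3a libraries.

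Stat2 (ENSMUSG00000040033, chromosome 10, 128270559 to 128292849 on the plus strand of GRCm38), the transcription factor that carries the type I interferon signal into the ISRE-binding complex, stood at 18.2, 14.2 and 18.4 CPM with C3a, 20.8, 18.1 and 22.5 CPM with C3aRA, and 26.4, 27.5 and 27.8 CPM with oxy-Hb alone. Each C3a library was below each oxy-Hb library, with C3a replicate 2 the lowest. The mean was 16.9 ± 2.41 CPM with C3a and 27.2 ± 0.754 CPM with oxy-Hb alone (SD, n = 3 each), a log2 fold change of -0.69 ± 0.15 (SE; edgeR adjusted p = 0.0211). The estimate ran from -0.77 to -0.49 over 21 alternatives. Leaving out any 1 oxy-Hb library ended the call (adjusted p = 0.0992, 0.0880 and 0.0611 without replicates 1, 2 and 3) as did fitting the C3a and oxy-Hb libraries alone (0.0654), while without C3a replicate 2 the value was -0.58 with an adjusted p of 0.00982.

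**Figure D2:**
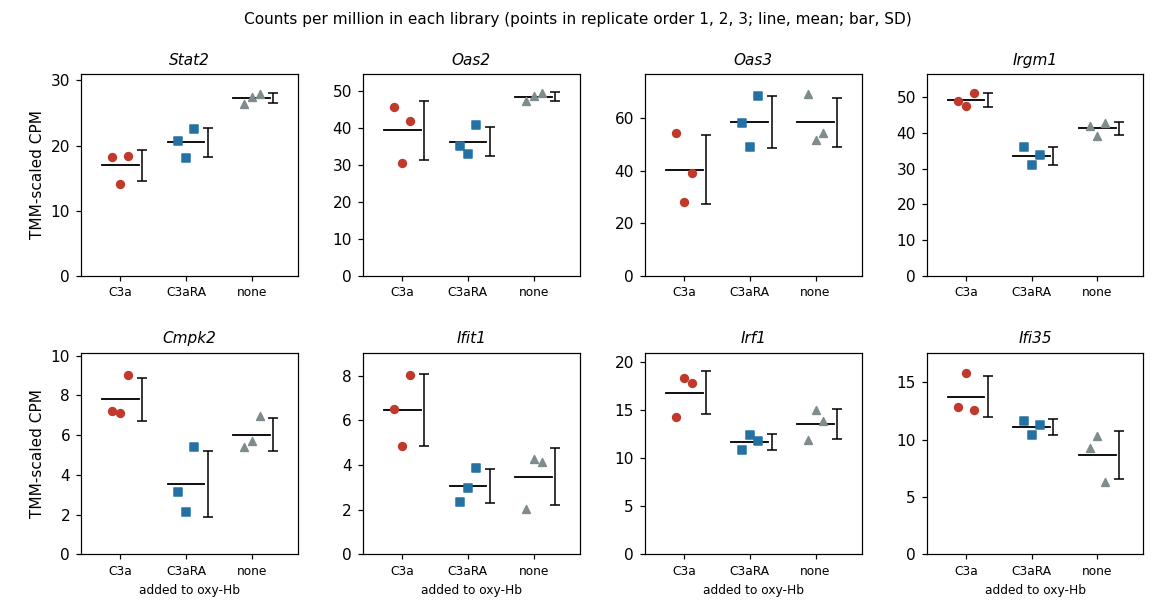
TMM-scaled CPM of 8 members in each library, by what was added to oxy-Hb, with points in replicate order, the mean as a line and the SD as a bar (n = 3 each). All 3 C3a libraries lie below all oxy-Hb libraries for Stat2 and above all C3aRA libraries for Irgm1, Cmpk2, Ifit1 and Irf1.

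The other factors of the pathway did not pass. Irf9, the DNA-binding partner of Stat2, had 35.9 ± 0.282 CPM with C3a, 30.8 ± 3.82 CPM with C3aRA and 30.7 ± 2.72 CPM with oxy-Hb alone (SD, n = 3 each). Its C3a libraries lay above all oxy-Hb libraries at a log2 fold change of 0.23 ± 0.13 (SE; edgeR adjusted p = 0.292). Irf1, an interferon gamma target and activator, stood at 14.3, 18.4 and 17.8 CPM with C3a, 10.9, 12.4 and 11.8 CPM with C3aRA, and 11.9, 15.0 and 13.9 CPM with oxy-Hb alone. The C3a and oxy-Hb libraries overlapped there (0.31 ± 0.16, edgeR adjusted p = 0.262). Irf7, which drives the later wave of type I interferon genes and was the most abundant of these 4 factors per kilobase, had 44.7, 36.8 and 35.0 CPM with C3a, 48.1, 43.0 and 61.6 CPM with C3aRA, and 50.0, 47.7 and 40.3 CPM with oxy-Hb alone. The C3a and oxy-Hb libraries of Irf7 overlapped too, at a log2 fold change of -0.24 ± 0.15 (SE; edgeR adjusted p = 0.333).

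Among the antiviral effectors, Ifi35, a cytoplasmic interferon-induced protein, came nearest to a call. It had 12.9, 15.8 and 12.6 CPM with C3a, 11.6, 10.4 and 11.3 CPM with C3aRA, and 9.30, 10.4 and 6.29 CPM with oxy-Hb alone, so the C3a libraries lay above both other groups, and its log2 fold change against oxy-Hb was 0.67 ± 0.20 (SE; edgeR adjusted p = 0.0713). Ifit1, which binds viral RNA, had 6.51, 4.84 and 8.04 CPM with C3a, 2.36, 2.95 and 3.87 CPM with C3aRA, and 2.01, 4.28 and 4.15 CPM with oxy-Hb alone. All C3a libraries of Ifit1 exceeded all others, at 0.88 ± 0.32 against oxy-Hb (edgeR adjusted p = 0.117). Without C3a replicate 2, Ifit1 passed at 1.05 (adjusted p = 0.0241), as did Oasl2 at 0.62 (adjusted p = 0.0163) in a fit that called 1395 genes (9.55%). Without C3a replicate 1, Ifi35 and Oas1a were called higher and Oas3 and Stat2 lower in a fit that called 1638 genes (11.2%), so 4 of 33 members is near that background.

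The most and least abundant IFIT genes overlapped between C3a and oxy-Hb. Ifit2, the most abundant of the 4 per kilobase, had 51.5, 33.3 and 48.5 CPM with C3a, 44.2, 42.9 and 49.3 CPM with C3aRA, and 39.8, 36.9 and 45.5 CPM with oxy-Hb alone. Ifit3b, the scarcest, had 0.415, 1.09 and 0.946 CPM with C3a, 0.157, 0.314 and 0.289 CPM with C3aRA, and 0.503, 0.264 and 0.855 CPM with oxy-Hb alone, which is close to the floor of 3 counts. In the ISG15 system, Isg15 itself, a ubiquitin-like modifier, had 15.6, 15.2 and 15.1 CPM with C3a, 13.6, 12.3 and 13.5 CPM with C3aRA, and 15.8, 13.4 and 14.5 CPM with oxy-Hb alone. Usp18, which removes Isg15 from proteins and damps the type I receptor, had 40.7, 39.2 and 35.5 CPM with C3a, 31.1, 31.6 and 35.6 CPM with C3aRA, and 34.1, 34.9 and 33.7 CPM with oxy-Hb alone. Every C3a library of Usp18 lay above every oxy-Hb library, and the log2 fold change of 0.17 ± 0.12 (SE) did not pass (edgeR adjusted p = 0.387).

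The OAS genes split in direction. Oas1a had 40.6, 54.0 and 51.1 CPM with C3a, 39.5, 43.2 and 44.6 CPM with C3aRA, and 38.1, 37.8 and 37.6 CPM with oxy-Hb alone, with every C3a library above every oxy-Hb library (0.36 ± 0.12, edgeR adjusted p = 0.103). Oas2, in the same chromosome 5 cluster, had 45.8, 30.5 and 41.8 CPM with C3a, 35.2, 33.01 and 40.8 CPM with C3aRA, and 47.2, 48.8 and 49.4 CPM with oxy-Hb alone. All C3a libraries of Oas2 lay below all oxy-Hb libraries, at -0.30 ± 0.15 (edgeR adjusted p = 0.222). Oas3, the longest of the family and shown here because of its values, had 54.3, 28.2 and 39.1 CPM with C3a, 58.1, 49.2 and 68.7 CPM with C3aRA, and 69.2, 51.9 and 54.4 CPM with oxy-Hb alone, a difference of -0.53 ± 0.21 (edgeR adjusted p = 0.147) with overlap and with C3a replicate 2 the lowest of all 9 libraries. Oasl1, the highest of the OAS genes per kilobase, had 66.3, 68.7 and 75.8 CPM with C3a, 54.9, 62.1 and 59.0 CPM with C3aRA, and 62.1, 77.8 and 64.0 CPM with oxy-Hb alone, and Oasl2, the lowest, had 35.6, 15.99 and 26.8 CPM with C3a, 21.5, 15.1 and 25.6 CPM with C3aRA, and 20.4, 20.0 and 20.5 CPM with oxy-Hb alone. Both overlapped between C3a and oxy-Hb.

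All 5 tested interferon-inducible GTPases of the list had a positive estimate in C3a against oxy-Hb, where 50.2% of all genes did, with none called. Outside the list, the GTPase Irgm2 stood at -0.10 (edgeR adjusted p = 0.810) and the GTPase Ifi47 at 0.50 (edgeR adjusted p = 0.173). Irgm1 (immunity-related GTPase M1), which controls other GTPases of its family and autophagy, had 49.0, 47.5 and 51.4 CPM with C3a, 36.02, 31.0 and 33.8 CPM with C3aRA, and 42.0, 39.3 and 42.8 CPM with oxy-Hb alone. Its C3a libraries lay above all oxy-Hb libraries (0.25 ± 0.11, edgeR adjusted p = 0.181). Gbp3, a guanylate-binding protein that attacks pathogen membranes, averaged 5.48 ± 0.576 CPM with C3a, 3.98 ± 1.94 CPM with C3aRA and 2.81 ± 1.076 CPM with oxy-Hb alone (SD, n = 3 each), at 0.96 ± 0.37 (edgeR adjusted p = 0.142). Gbp2 (0.97 ± 0.48), Igtp (0.58 ± 0.25) and Gbp7 (0.22 ± 0.27) had overlapping groups and did not pass. Summed over the 6 genes, the GTPases reached 70.5, 70.6 and 75.7 CPM with C3a, 50.0, 47.8 and 54.3 CPM with C3aRA, and 54.2, 55.9 and 61.5 CPM with oxy-Hb alone, so the C3a libraries held the 3 highest sums. Irgm1 made up most of each sum, so the sums are not separate from its values above.

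None of the 3 tested sensors and none of the 8 other effectors passed with C3a against oxy-Hb. Ifi204 had 113, 93.1 and 92.01 CPM with C3a, 92.5, 87.9 and 96.3 CPM with C3aRA, and 84.6, 72.6 and 96.7 CPM with oxy-Hb alone, and Ifi209, of the same family, had 6.10, 3.07 and 3.01 CPM with C3a, 2.75, 1.95 and 4.51 CPM with C3aRA, and 4.59, 2.33 and 3.48 CPM with oxy-Hb alone. Dhx58, the helicase LGP2 that tunes RNA sensing, averaged 11.6 ± 4.22 CPM with C3a, 12.4 ± 2.19 CPM with C3aRA and 10.9 ± 1.63 CPM with oxy-Hb alone (SD, n = 3 each). Bst2 had 169.9, 199.7 and 137 CPM with C3a, 159, 133 and 146 CPM with C3aRA, and 135, 165 and 143 CPM with oxy-Hb alone, and its groups overlapped. Rsad2 averaged 95.4 ± 17.2 CPM with C3a, 107 ± 15.6 CPM with C3aRA and 98.3 ± 6.55 CPM with oxy-Hb alone (SD, n = 3 each), with a log2 fold change against oxy-Hb of -0.04 ± 0.14 (SE). Mx2, the second Mx GTPase, had 4.98, 3.80 and 6.26 CPM with C3a, 3.77, 2.703 and 5.14 CPM with C3aRA, and 4.02, 2.64 and 5.25 CPM with oxy-Hb alone. Ifi44, near the floor, had 0.355, 0.729 and 0.709 CPM with C3a, 0.157, 0.440 and 0.636 CPM with C3aRA, and 0.0629, 0.529 and 0.672 CPM with oxy-Hb alone. Under 1 or more of the alternatives the sign of Dhx58, Ifi209, Ifit3, Isg15, Isg20, Oasl1, Rsad2, Trim30a and Xaf1 turned, and none of these estimates passed. Of the rest, Isg20 (an exonuclease of viral RNA), Xaf1 (a pro-apoptotic protein) and Trim30a had log2 fold changes of 0.03, -0.10 and 0.10 with adjusted p of 0.941, 0.723 and 0.713 by edgeR.

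**Figure D3:**
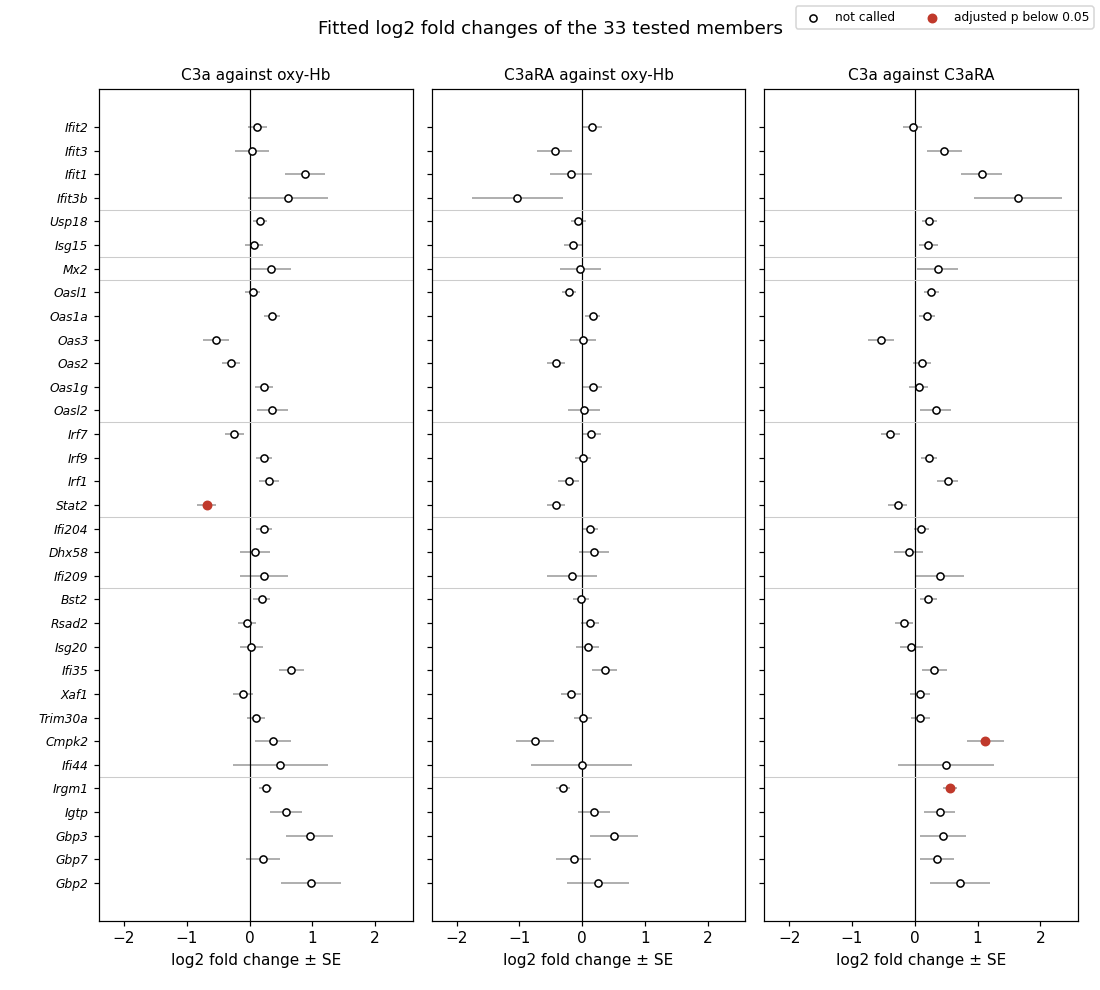
Fitted log2 fold changes (± SE) of the 33 tested members in 3 comparisons of groups of 3 libraries, with filled red points for an adjusted p below 0.05. With C3a against oxy-Hb 27 of 33 points lie right of 0 but only Stat2, left of 0, is filled, with C3aRA against oxy-Hb none is filled, and with C3a against C3aRA Irgm1 and Cmpk2 are filled.

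The second comparison asked how the members stood when C3aRA was added to oxy-Hb, and it shares its oxy-Hb libraries with the first. No member passed, and no gene did (0 of 14146, 0%, by edgeR), with 1153 genes (8.15%) at an unadjusted p below 0.05. DESeq2 called 1 gene and limma-voom 0, none of them a member. Estimates were positive in 16 of 33 members, against 48% of all genes (12 of 33 and 36.6% with total-count scaling), with a median log2 fold change of -0.01 over members and over all genes alike. The median member in the C3aRA libraries stood at -0.09, -0.12 and 0.15 (log2) relative to the mean of the oxy-Hb libraries, with replicate 3 on the other side of 0 from the other two.

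At an unadjusted p below 0.05, 4 of 33 members were lower, where 4.78% of all genes were, and 0 were higher, where 3.37% were. They were Oas2 at -0.42 ± 0.15, Stat2 at -0.41 ± 0.15, Irgm1 at -0.30 ± 0.11 and Cmpk2 at -0.75 ± 0.30, with edgeR adjusted p of 0.504, 0.504, 0.518 and 0.547. In each of these 4, all C3aRA libraries lay below all oxy-Hb libraries, a pattern shown in this direction by 11% of all genes. Cmpk2 (ENSMUSG00000020638, chromosome 12, 26469204 to 26479837 on the plus strand of GRCm38), a mitochondrial nucleotide kinase gene beside Rsad2, had 7.23, 7.13 and 9.04 CPM with C3a, 3.15, 2.14 and 5.38 CPM with C3aRA, and 5.41, 5.71 and 6.96 CPM with oxy-Hb alone. C3aRA replicate 3 came within a small margin of the lowest oxy-Hb library for Cmpk2 and replicate 2 was far below it. Groups without overlap in either direction were found in 7 of 33 members, against 22.9% of all genes. The other 3 were Ifi35, Oas1a and Oas1g, in which all C3aRA libraries lay above all oxy-Hb libraries, at log2 fold changes of 0.36, 0.17 and 0.17 that did not pass. The margin was thin for Ifi35, at 10.373 CPM in C3aRA replicate 2 against 10.367 CPM in oxy-Hb replicate 2. It was also thin for Oas1g, at 17.30 CPM in C3aRA replicate 1 against 17.15 CPM in oxy-Hb replicate 3.

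The count of calls in this comparison changed with the libraries fitted. With the C3aRA and oxy-Hb libraries fitted alone, 603 genes (4.43%) were called, and Oas2 was the member among them (-0.42, adjusted p = 0.0193). Without C3a replicate 2, a library of neither group, 475 genes (3.25%) were called, with Oas2 again at -0.42 (adjusted p = 0.0265).

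The third comparison set C3a directly against C3aRA, both on oxy-Hb, with the same C3a libraries as the first and the same C3aRA libraries as the second. Irgm1 and Cmpk2 were higher with C3a, and no member was lower. The call rate over all genes was 876 of 14146 (6.19%), with 406 higher (2.87%) and 470 lower (3.32%), against 2 of 33 members, so the share of members was close to the background. Positive estimates were found in 26 of 33 members, against 50.7% of all genes, with a median log2 fold change of 0.23 over the members and 0.01 over all genes. At an unadjusted p below 0.05, 6 members were higher and 2 lower, where 12% and 12.3% of all genes were (24.2% together). Every C3a library lay above every C3aRA library in 9 members (14.1% of all genes did so), and the reverse held for 0 members (14.7% of all genes).

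Irgm1 (ENSMUSG00000046879, chromosome 11, 48861968 to 48871683 on the minus strand of GRCm38) averaged 49.3 ± 1.92 CPM with C3a and 33.6 ± 2.52 CPM with C3aRA (SD, n = 3 each), a log2 fold change of 0.55 ± 0.11 (SE; edgeR adjusted p = 0.0154). The oxy-Hb libraries, at 42.0, 39.3 and 42.8 CPM, lay between the groups without touching either. Over 21 alternatives the estimate stayed between 0.50 and 0.61. The call was lost without any 1 of the C3aRA libraries (adjusted p = 0.0629, 0.0743 and 0.0665) and with the C3a and C3aRA libraries fitted alone (0.0621), and without C3a replicate 2 it stood at 0.57 with an adjusted p of 0.000929.

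Cmpk2 averaged 7.80 ± 1.076 CPM with C3a and 3.55 ± 1.66 CPM with C3aRA (SD, n = 3 each), at 1.12 ± 0.29 on the log2 scale (SE; edgeR adjusted p = 0.0388). The groups did not overlap, though C3aRA replicate 3 at 5.38 CPM was far above C3aRA replicate 2 at 2.14 CPM. The call was lost with total-count scaling, with the C3a and C3aRA libraries fitted alone, and without C3a replicate 3, C3aRA replicate 1 or 2, or any oxy-Hb library (adjusted p = 0.0508 to 0.163). Leaving out C3aRA replicates gave estimates of 0.86 (without replicate 2) to 1.57 (without replicate 3). Rsad2, its neighbour on chromosome 12 on the opposite strand, had -0.17 ± 0.14 in the same comparison and did not pass.

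Ifit1 and Irf1 stood next in the order of p. Ifit1 averaged 6.46 ± 1.60 CPM with C3a and 3.06 ± 0.763 CPM with C3aRA (SD, n = 3 each), at 1.06 ± 0.32 (edgeR adjusted p = 0.0653), and Irf1 averaged 16.8 ± 2.22 CPM with C3a and 11.7 ± 0.802 CPM with C3aRA (SD, n = 3 each), at 0.52 ± 0.16 (edgeR adjusted p = 0.0725). Neither pair of groups overlapped, and DESeq2 called both. Without C3a replicate 2, 1827 genes (12.5%) were called and Ifit1 and Oasl2 joined Irgm1 and Cmpk2, at 1.23 (adjusted p = 0.00713) and 0.59 (adjusted p = 0.0179). Oas3 (-0.54 ± 0.21) and Irf7 (-0.39 ± 0.15) were the members with the lowest p among those that stood lower with C3a, and both overlapped. Oasl1, Irf9, Isg15, Ifi35 and Ifit3b completed the 9 members without overlap, at 0.26, 0.22, 0.22, 0.31 and 1.64, and none of these passed.

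Members with and without the ISRE letters had similar medians. In C3a against oxy-Hb the median log2 fold change was 0.22 in 16 tested members with the ISRE letters and 0.23 in 12 without, and the number positive was 13 and 10. In C3aRA against oxy-Hb the medians were -0.01 and -0.00, and in C3a against C3aRA 0.29 and 0.28. The called genes fell on both sides, since Stat2 and Irgm1 had matches and Cmpk2 had none.

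C3a replicate 2 differed from the other C3a libraries along transcript length. Its log2 CPM minus the mean of C3a replicates 1 and 3 had a Pearson r of -0.59 and a Spearman rho of -0.58 with the length of the longest transcript over 33 members. This is a description across genes of 1 library, whose points share that library's depth and composition. The median was -0.37 in members of 2597 bases or longer and 0.23 in shorter ones, and 19 of 33 members lay below 0. The lowest were Oasl2 (-0.95), Gbp7 (-0.92) and Oas3 (-0.70). Over all 3 libraries, the log2 fold change of C3a against oxy-Hb had a Pearson r of -0.32 and a rho of -0.20 with length. With a correction for length and GC content per library, 25 of 33 members were positive in C3a against oxy-Hb, against 53.8% of all genes. The median was 0.14 over the members and 0.03 over all genes. Stat2 passed at -0.56 (edgeR adjusted p = 0.0204), and Ifi35 passed as well, where 5.36% of all genes were called.

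**Figure D4:**
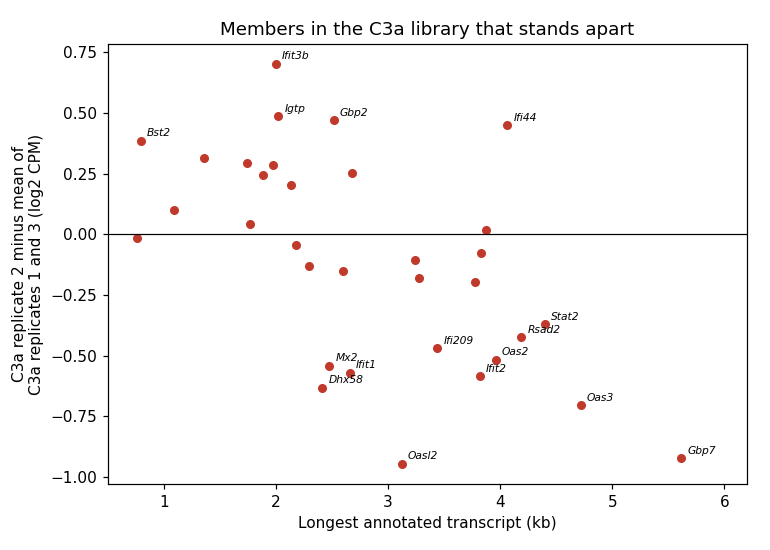
Difference of C3a replicate 2 from the mean of C3a replicates 1 and 3 (log2 CPM) for the 33 tested members against the length of the longest annotated transcript in kb. Points slope downward from short to long genes (Pearson r -0.59), and Oasl2 and Gbp7 lie lowest.

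Genes that make, receive or regulate interferon, and other interferon-stimulated genes outside the list, were read from the same fit. Of 93 such gene symbols listed, 76 had a row and 71 were tested. The symbols Cgas and Sting1 are other names of Mb21d1 and Tmem173, which were listed too and had the rows. With C3a against oxy-Hb 1 was higher and 3 were lower, with a median log2 fold change of 0.04, where 0.905% of all genes were higher and 3.04% lower, so these counts are near the background. With C3aRA against oxy-Hb 0 were called, as was the case over all genes (0%). At an unadjusted p below 0.05, 2 were higher and 2 lower, where 3.37% and 4.78% of all genes were, which is near the background. With C3a against C3aRA 3 were higher and 1 was lower, with a median of -0.01. Of all genes 2.87% were higher and 3.32% lower, so this is also near the background. The 44 tested interferon-stimulated genes outside the list leaned less than the members did. With C3a against oxy-Hb 27 of the 44 were positive (61.4%), at a median of 0.10. With C3a against C3aRA 23 were positive (52.3%), at a median of 0.01. Among the members 27 and 26 of 33 were positive, at a median of 0.23 in each comparison. Both lists were chosen with earlier results of these data known, and the part of that choice in the difference was not tested.

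Interferons themselves were barely detected. Rows were found for 2 of 11 listed ligands, Ifnb1 with at most 4 counts and Ifnk with at most 5 counts in any library. The receiving arm was present and not called in any comparison, in 9 of 9 genes. Ifnar1 stood at 76.9, 60.1 and 82.7 CPM with C3a, 81.0, 69.2 and 78.5 CPM with C3aRA, and 71.7, 67.5 and 74.1 CPM with oxy-Hb alone. Jak2 and Tyk2, kinases of the receptors, had the lowest p of this group in C3a against C3aRA, at -0.33 ± 0.12 and -0.42 ± 0.16 (SE), and did not pass (edgeR adjusted p = 0.110 and 0.121).

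Among the sensors upstream of interferon, Tlr9, the endosomal receptor for bacterial DNA, had 6.69, 3.70 and 5.73 CPM with C3a, 10.1, 7.23 and 7.34 CPM with C3aRA, and 11.6, 11.95 and 11.9 CPM with oxy-Hb alone. It fell with C3a against oxy-Hb by 1.14 on the log2 scale (SE 0.23; edgeR adjusted p = 0.0167), a call that ended when oxy-Hb replicate 1 or 2 was left out or the C3a and oxy-Hb libraries were fitted alone. Ikbke, a kinase that activates Irf3 and Irf7, had 45.1, 34.2 and 46.4 CPM with C3a, 53.2, 60.6 and 54.9 CPM with C3aRA, and 63.8, 62.6 and 58.7 CPM with oxy-Hb alone, and fell by 0.56 (SE 0.13; edgeR adjusted p = 0.0279), a call lost without any 1 oxy-Hb library or C3aRA replicate 3 and with the 2 groups alone. Tlr7, the receptor for single-stranded RNA, was higher with C3a than with C3aRA, at 189.9, 161 and 193 CPM with C3a, 123.4, 135 and 134 CPM with C3aRA, and 139, 155 and 174 CPM with oxy-Hb alone (log2 fold change 0.47 ± 0.11, SE; edgeR adjusted p = 0.0280). So was Tmem173, the STING adaptor of DNA sensing, at 49.5, 53.3 and 48.0 CPM with C3a, 34.2, 33.3 and 39.7 CPM with C3aRA, and 44.0, 41.9 and 36.6 CPM with oxy-Hb alone (0.49 ± 0.12, SE; edgeR adjusted p = 0.0313). Both of these calls were lost without C3a replicate 3, any 1 C3aRA library or oxy-Hb replicate 2, and with the C3a and C3aRA libraries alone.

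**Figure D5:**
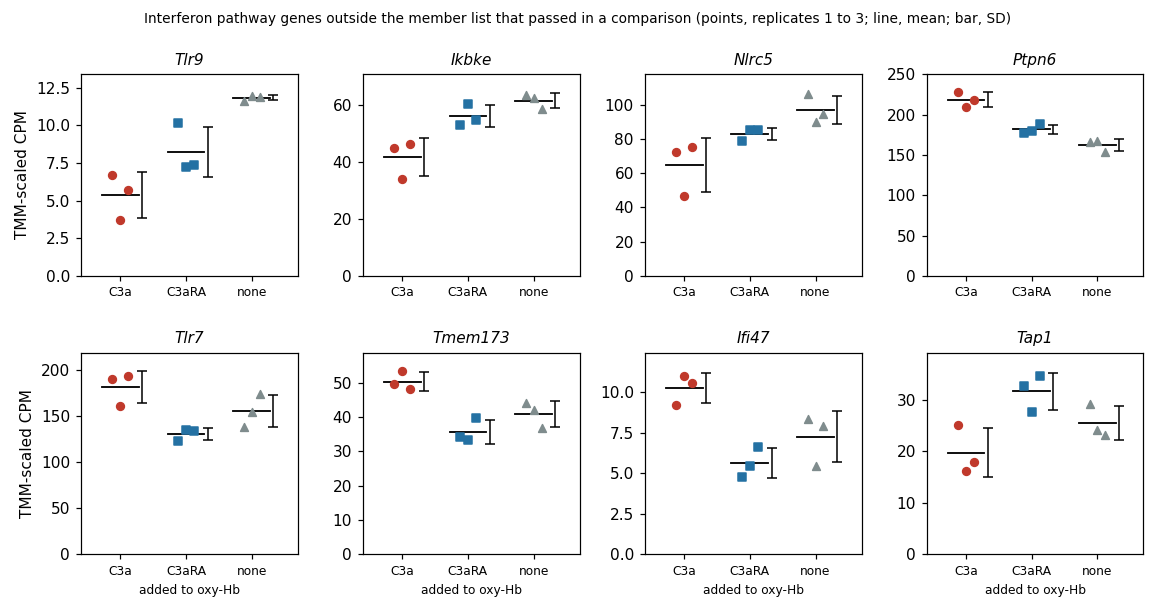
TMM-scaled CPM of the 8 interferon pathway genes outside the member list that passed in at least 1 comparison, by what was added to oxy-Hb, with the mean as a line and the SD as a bar (n = 3 each). Tlr9, Ikbke and Nlrc5 lie lower and Ptpn6 higher with C3a than with oxy-Hb alone, and Tlr7, Tmem173 and Ifi47 lie higher and Tap1 lower with C3a than with C3aRA.

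Ptpn6, the phosphatase SHP-1 that restrains receptor signalling, had 228, 209 and 219 CPM with C3a, 177, 180.0 and 188 CPM with C3aRA, and 165, 168 and 154 CPM with oxy-Hb alone, and rose with C3a against oxy-Hb by 0.43 (log2; SE 0.09; edgeR adjusted p = 0.0226). The call was lost with total-count scaling, with the 2 groups alone, without C3aRA replicate 2 and without any 1 oxy-Hb library. Of the other interferon-stimulated genes, 44 were tested. Nlrc5, the activator of MHC class I genes, had 72.5, 46.5 and 75.1 CPM with C3a, 78.8, 85.0 and 85.1 CPM with C3aRA, and 106, 90.1 and 94.3 CPM with oxy-Hb alone, and fell with C3a against oxy-Hb by 0.58 (SE 0.15; edgeR adjusted p = 0.0487), a call lost after the length and GC correction (-0.26), with the 2 groups alone and without any 1 of the C3aRA or oxy-Hb libraries. Ifi47, a GTPase of the same family as Irgm1, was higher with C3a than with C3aRA, by 0.86 (SE 0.22, edgeR adjusted p = 0.0359). It had 9.18, 10.99 and 10.6 CPM with C3a, 4.80, 5.47 and 6.65 CPM with C3aRA, and 8.36, 5.45 and 7.94 CPM with oxy-Hb alone. Tap1, a peptide transporter of antigen presentation, was lower with C3a than with C3aRA, at 25.2, 16.1 and 18.0 CPM with C3a, 32.7, 27.6 and 34.6 CPM with C3aRA, and 29.2, 24.1 and 23.1 CPM with oxy-Hb alone (-0.68 ± 0.17, SE; edgeR adjusted p = 0.0355). The Ifi47 and Tap1 calls were lost with the 2 groups alone and without C3a replicate 3, any 1 C3aRA library or oxy-Hb replicate 3, and also without oxy-Hb replicate 1 for Ifi47 and oxy-Hb replicate 2 for Tap1. Cxcl10, a chemokine induced by interferon, had 8.77, 8.90 and 8.92 CPM with C3a, 12.7, 12.1 and 14.5 CPM with C3aRA, and 11.8, 10.53 and 11.7 CPM with oxy-Hb alone, and missed the threshold in C3a against C3aRA (-0.56 ± 0.16, SE; edgeR adjusted p = 0.0531).

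The authors' deposited tables of their own comparisons called 508 of 22935 genes (2.22%) for C3a against oxy-Hb and 715 (3.12%) for C3aRA against oxy-Hb at an adjusted p below 0.05. In the authors' deposited table for C3a, 1 of 35 members passed, Stat2, at a log2 fold change of -0.68 and an adjusted p of 0.0121. In the authors' deposited table for C3aRA, Oas2 (-0.41, adjusted p = 0.00951) and Stat2 (-0.41, adjusted p = 0.0491) passed. That last result differs from the joint fit, in which no member passed, and Oas2 but not Stat2 also passed when the C3aRA and oxy-Hb libraries were fitted alone.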

How the data were processed

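RNA-seq of BV2 cells was analysed in 9 libraries, 3 in each of 3 groups named by the titles. The 3 samples labelled PBS were not analysed here. The authors deposited read counts per gene in 2 tables, 1 for each comparison with oxy-Hb, with no difference in the counts they share for oxy-Hb. The tables also hold the authors' log2 fold changes and p-values, used only where named. The submitters' processing notes name GRCm38 and mm10. Which aligner, counter and strand setting were used is not given in the sources used here.

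Counts were fitted with edgeR 4.0.16 (R 4.3.3) over all 9 libraries, with TMM scaling, the default expression filter at a minimum count of 10, a robust quasi-likelihood fit and Benjamini-Hochberg adjustment over 14146 genes. A gene was called at an adjusted p below 0.05. CPM values are TMM-scaled, lengths are from GENCODE M21, and promoters from RefSeq. Alternatives used limma 3.58.1 and DESeq2 1.42.0, other scalings and filters, each library left out, a replicate block, and a length and GC correction by splines of 5 degrees of freedom. Steps were tested on simulated data. A fit of the C3a comparisons alone and the length correction, each without C3a replicate 2, were added after seeing the data.

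The members and gene lists were chosen with earlier results of these data known. All members may be named, with values per library for called members, the highest and lowest of each role, and the 4 lowest p of each comparison. Oas3 was given per library after its values were seen.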

Additional observations from a re-analysis of the deposited data

How the results depend on the processing

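Among the members and the listed interferon pathway genes, no fold change that passed the test turned direction under an alternative. Other called genes were not checked for this. For C3a against oxy-Hb, genes called were 1033 with no count filter, 1243 with DESeq2, 99 with the 2 groups alone, 101 at an adjusted p below 0.01 and 1458 below 0.10, and 54 to 1638 with 1 library left out. Members called were 2 with no filter (4.58% of all genes), DESeq2 (5.42%), the length and GC correction (5.36%) or a limit of 0.10 (10.3%). They were 0 with the 2 groups alone (0.72%) or a limit of 0.01 (0.714%), and 0 to 4 with 1 library left out (0.37 to 11.2%). The members' median was 0.13 with total-count scaling (-0.09 over all genes) and 0.12 at a mean of at least 5 CPM (0.02). It was 0.14 with the length and GC correction (0.03) and 0.14 to 0.27 with 1 library left out (-0.01 to 0.01). Without C3a replicate 2, the length and GC correction gave 1276 genes (8.73%) and 4 members. The 2 groups alone without that library gave 1101 genes (7.75%), 3 members and a median of 0.27 (-0.01 over all genes). For C3aRA against oxy-Hb, genes called were 8 with no filter and 1 with DESeq2. They were 603 (4.43%) with the 2 groups alone and 0 to 475 (0 to 3.25%) with 1 library left out. Members called there were 1 with the 2 groups alone and 0 to 1 with 1 library left out. The members' median with 1 library left out was -0.12 to 0.04 (-0.02 to -0.01 over all genes). The length and GC correction without C3a replicate 2 gave 804 genes (5.5%) and 1 member in that comparison. For C3a against C3aRA, genes called were 1445 with DESeq2, 118 with the 2 groups alone, 88 below 0.01, 1694 below 0.10 and 53 to 1827 with 1 library left out. Members called were 1 with total-count scaling (5.04% of all genes) and 4 with DESeq2 (6.3%) or below 0.10 (12%). They were 0 with the 2 groups alone (0.875%) or below 0.01 (0.622%), and 0 to 4 with 1 library left out (0.361 to 12.5%). The median was 0.20 with total-count scaling (-0.02 over all genes), 0.25 with upper quartile scaling (0.03) and 0.26 with no filter or DESeq2 (0). It was 0.19 at a mean of at least 5 CPM (0.01) and 0.17 to 0.30 with 1 library left out (-0.01 to 0.01). Without C3a replicate 2, the length and GC correction gave 1977 genes (13.5%), 5 members and a median of 0.21 (0.00 over all genes). The 2 groups alone without that library gave 1938 genes (13.9%), 4 members and a median of 0.21 (-0.01). The cause of these changes was not tested.

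The length and GC correction split the calls of C3a against oxy-Hb into 399 higher and 359 lower. Whether replicate numbers pair the libraries was not settled. Correlations ran from -0.03 to 0.15 between same-numbered libraries and from -0.13 to 0.08 between the others. Of 9 libraries, 6 were closest to their own number. With the replicate block, 835, 0 and 1210 genes (5.9%, 0% and 8.55%) and 2, 0 and 4 members were called in the 3 comparisons. Mx1 and Gbp5, with 0 to 18 and 0 to 12 counts per library, were below the count filter, and a difference in them was not detectable at this depth.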
